A study of Mus musculus with 18 samples.

Results

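H19, Igf2, Dlk1, Meg3 and Rasgrf1 are imprinted genes of 3 mouse domains. The control regions of these domains carry DNA methylation on the paternal chromosome in the germ line. The genes were taken by name, as 5 of the 37273 genes of the GENCODE annotation of mm9. Each was examined over its gene body with 20 kb on both sides. Every peak of 6 deposited ChIP-seq lists that touched such a window by at least 1 bp was recorded with its position, score and width. The lists were KAP1 and SETDB1 in Hepa 1.6 cells, a wild-type liver tumour cell line from a C57L mouse, and the histone marks H3K9me3 and H3K27ac in mouse embryonic fibroblasts (MEFs) of C57BL/6 background (C57BL/6J in the study's methods). The WT MEFs carried loxP sites on both copies of Kap1 that had not been excised, and the Kap1 KO MEFs had lost the gene. The study's methods describe, for RNA from these MEFs, a single stably growing Kap1 KO clone that was kept through many passages beside its non-excised counterpart. If the ChIP libraries came from the same clone, which is not stated, loss of KAP1 cannot be told apart from the clone. Each condition had 1 library, so no value below has a replicate error and no difference was tested.

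Imprinted genes are expressed from a single parental copy, and the choice is set by DNA methylation laid down in the egg or the sperm at an imprinting control region. After fertilisation the methylated copy is protected by the KRAB zinc finger protein ZFP57, which binds a methylated hexamer and recruits KAP1 (also called TRIM28). KAP1 is a scaffold that brings in the histone methyltransferase SETDB1, which places H3K9me3, a mark of silent chromatin, whereas H3K27ac marks active promoters and enhancers. H19 is a maternally expressed noncoding RNA, and Igf2 is the paternally expressed growth factor gene of the same domain. Between them, the unmethylated maternal control region binds the insulator protein CTCF, which keeps Igf2 from enhancers on the far side of H19. Dlk1, a paternally expressed transmembrane ligand of the Notch family, and Meg3, a maternally expressed noncoding RNA, share a control region in the interval between them. Rasgrf1, an exchange factor for Ras that is imprinted mainly in brain, has a methylated region far upstream that lies beside a tandem repeat.

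The KAP1 peaks of the highest score at these genes held the ZFP57 hexamer several times, and the stretches of 200 bases richest in it are shown first because the binding sites described below sit on them. Sequences are the plus strand of the mm9 reference. Capitals mark TGCCGC, or GCGGCA where the match is on the minus strand.
H19, peak nearer the gene (chr7:149765995-149766194): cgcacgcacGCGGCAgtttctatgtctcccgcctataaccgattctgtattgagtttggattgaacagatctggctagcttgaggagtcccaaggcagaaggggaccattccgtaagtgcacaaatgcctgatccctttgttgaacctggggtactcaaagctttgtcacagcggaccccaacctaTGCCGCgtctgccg
H19, peak farther from the gene (chr7:149767603-149767802): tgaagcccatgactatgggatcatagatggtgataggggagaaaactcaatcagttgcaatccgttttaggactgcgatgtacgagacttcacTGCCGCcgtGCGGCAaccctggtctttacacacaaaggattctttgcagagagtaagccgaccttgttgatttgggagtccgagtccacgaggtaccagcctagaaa
Meg3 (chr12:110766480-110766679): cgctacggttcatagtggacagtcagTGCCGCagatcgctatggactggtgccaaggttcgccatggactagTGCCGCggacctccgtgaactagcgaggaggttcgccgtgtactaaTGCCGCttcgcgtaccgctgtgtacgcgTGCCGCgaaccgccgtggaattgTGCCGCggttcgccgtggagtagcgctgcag
Rasgrf1 (chr9:89774432-89774631): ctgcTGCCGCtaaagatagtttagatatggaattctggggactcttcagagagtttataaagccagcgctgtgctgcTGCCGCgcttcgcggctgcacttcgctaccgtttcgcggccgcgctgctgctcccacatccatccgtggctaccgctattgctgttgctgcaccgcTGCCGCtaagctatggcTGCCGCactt

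In the H19 peaks a second motif was of interest, since CTCF binds this control region on the other parental copy. Part of its motif was searched as GGNGGCAG, which reads CTGCCNCC on the minus strand and can share bases with the hexamer. All 5 matches in the nearer and farther peaks lay on the minus strand. An outer KAP1 peak with a score of 117, 44.3 kb downstream of the H19 start, held 1 on the plus strand, which is not shown. The 5 are shown with 11 bases on either side, with the match in capitals.
H19, peak nearer the gene (chr7:149766203-149766232): gtagtattgtaCTGCCACCacgcggcatcg
H19, peak nearer the gene (chr7:149766658-149766687): ataggagtatgCTGCCACCgcgcggtagca
H19, peak farther from the gene (chr7:149767684-149767713): acgagacttcaCTGCCGCCgtgcggcaacc
H19, peak farther from the gene (chr7:149767803-149767832): atgcatgtgtcCTGCCCCCctagtggcatt
H19, peak farther from the gene (chr7:149767928-149767957): aatcgattttgCTGCCACCacgcggcaact

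The lists differed in length and in how high their scores ran, so each member's peak was also placed by its rank within its own list, given as the percentage of that list's peaks with a score at least as high. The KAP1 list held 13366 peaks with a median score of 149, and the SETDB1 list held 2957 peaks, all of them entries of the KAP1 list that carried the KAP1 score. A SETDB1 entry therefore says that a KAP1 peak was also listed for SETDB1, and its score is not a SETDB1 measurement. H3K9me3 gave 14425 peaks in WT MEFs and 4319 in Kap1 KO MEFs, with median scores of 79.9 and 65.61, whereas H3K27ac gave 36275 and 36436 peaks with medians of 686.33 and 575.6. H3K27ac peaks covered a transcript start of 8 of 8 fibroblast markers in both genotypes, and of 2 of 20 markers of other cell types, the endothelial genes Pecam1 and Kdr. Trim28, which encodes KAP1, had 1 H3K27ac peak with a score of 3100 in both genotypes, so these lists do not check the deletion.

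KAP1 peaks lay within 20 kb of 3 of the 5 genes, H19, Igf2 and Meg3, where 36.3% of all gene windows held one. The SETDB1 list had entries at H19 and Meg3, 2 of 5, against 8.19% of all gene windows. H3K9me3 peaks of WT MEFs were found at Igf2 and Meg3, against 23.6% of all windows, and in Kap1 KO MEFs only Igf2 had one, against 4.05%. H3K27ac peaks were found at Dlk1, Meg3 and Rasgrf1 in both genotypes, 3 of 5 genes, where 61.7% of all windows had one in WT MEFs and 62.6% in Kap1 KO MEFs. With 5 genes, none of these counts was read as a departure from genes in general, and the account that follows is of where the peaks lay and how high they ranked. KAP1 was measured in Hepa 1.6 cells and the histone marks in MEFs, so a shared position below joins different cell types.

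**Figure D1:**
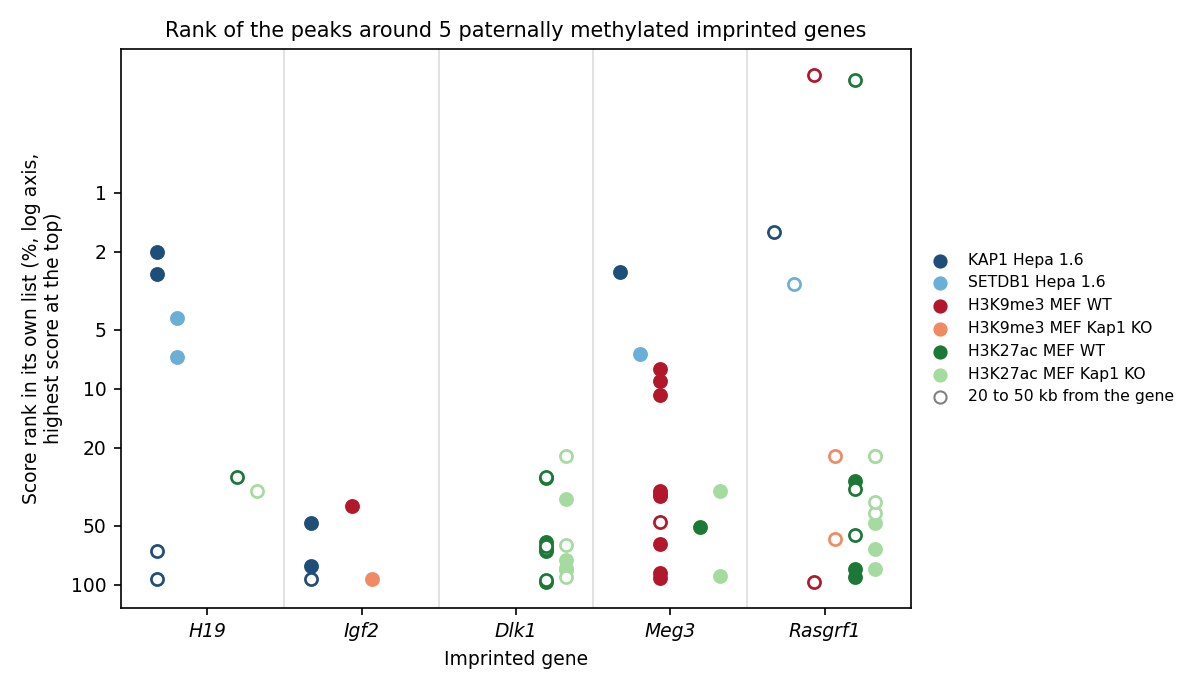
Score rank of every peak within 50 kb of the 5 genes, as a percentage of the peaks in its own list with a score at least as high (log axis, highest scores at the top); filled points lie within 20 kb of the gene and open points between 20 and 50 kb. The KAP1 peaks within 20 kb of H19 and Meg3 and the one upstream of Rasgrf1 sit between 1.58% and 2.6%, those within 20 kb of Igf2 at 48.1% and 80.3%, the outer ones of H19 at 66.9% and 93.8%, and Dlk1 has none.

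At H19, the KAP1 signal formed 2 neighbouring peaks immediately upstream of the gene. H19 lies on the minus strand at chr7:149761434-149764048. The nearer peak, chr7:149765652-149766801, was 1150 bp wide, lay 1.6 to 2.75 kb upstream of the annotated start and had a score of 2429, with 2.0% of KAP1 peaks as high. The farther one, chr7:149766840-149768356, was 1517 bp wide, lay 2.79 to 4.31 kb upstream and scored 1928, at 2.6%. Both fell outside annotated genes and together covered 6.26% of the window. Both were also in the SETDB1 list, where the same scores stood at 4.33% and 6.87%.

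No H3K9me3 or H3K27ac peak fell in the H19 window in either genotype. In MEFs the nearest H3K9me3 peak lay 91.5 kb from H19 in WT cells and 80.6 kb in Kap1 KO cells, at Igf2 in both cases. The nearest H3K27ac peak lay 40.9 kb away in WT and 41.1 kb away in Kap1 KO MEFs, over the start of Mrpl23, which encodes a mitochondrial ribosomal protein, with scores of 3100 and 1674.85. At the mean density of the WT list a window of this length would hold 0.232 H3K9me3 peaks, so an empty one is common.

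Igf2, 72624 bp from H19 and also on the minus strand (chr7:149836673-149852721), showed KAP1 at a much lower level. Its stronger peak, chr7:149846324-149847331, scored 154 over 1008 bp and covered a transcript start and an exon of Igf2, at the middle of the KAP1 list (48.1%). The weaker one, chr7:149855798-149856508, scored 99 over 711 bp (80.3%) and lay 3.08 to 3.79 kb upstream, over an exon of the antisense transcript Igf2as. Neither was in the SETDB1 list, whose nearest entry was the farther H19 peak, 68.3 kb away.

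The weaker Igf2 site was also where the H3K9me3 peak of WT MEFs was found. That peak, chr7:149855594-149856120, was 527 bp wide, scored 93.35 (39.7% of its list) and shared 323 bp with the KAP1 peak of Hepa 1.6 cells. It was the only overlap of the 2 marks among the 5 KAP1 peaks inside the windows, where 13.9% of all KAP1 peaks overlapped a WT H3K9me3 peak. The Kap1 KO list had no peak at this site. It had instead a peak of 301 bp at chr7:149844657-149844957 over another Igf2 transcript start, with a score of 51.24 that lay near the bottom of its list (93.5%) and below 80, the lowest score of the KAP1 list. H3K27ac was not listed at Igf2, and its nearest peak lay 116 kb away in both genotypes.

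**Figure D2:**
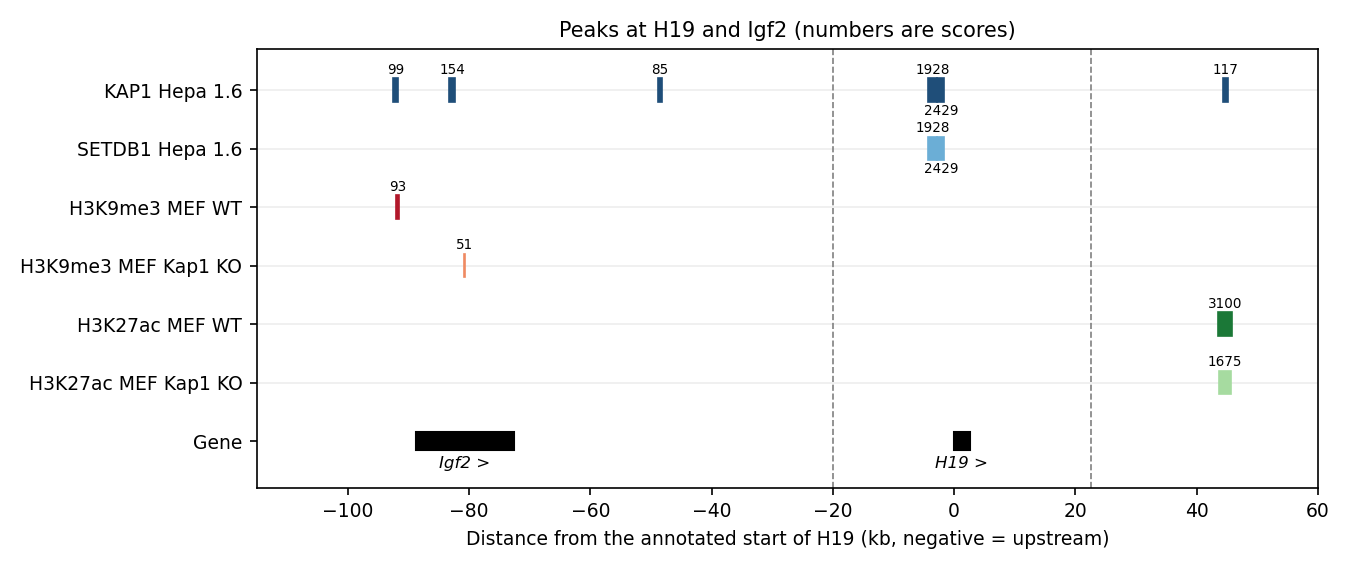
Peaks of the 6 lists around H19 and Igf2, drawn to scale by distance from the annotated start of H19 (kb, negative is upstream); numbers are scores, dashed lines bound the H19 window and arrowheads give the direction of transcription. KAP1 and SETDB1 entries with scores of 2429 and 1928 stand just upstream of H19, while the marks in MEFs appear only at Igf2 (H3K9me3, 93.35 and 51.24) and beyond the window (H3K27ac).

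Dlk1 (chr12:110691033-110701546, plus strand) had neither KAP1, SETDB1 nor H3K9me3 in its window. Its nearest KAP1 peak was the one that belonged to Meg3, 64.6 kb away, and the nearest H3K9me3 peak of WT MEFs stood in the same region, 61.8 kb away. In Kap1 KO MEFs the nearest H3K9me3 peak was 1903386 bp away.

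H3K27ac was the only mark in the Dlk1 window, and its pattern there was shared by the genotypes. Each list had 4 peaks, all upstream of the gene, and every one overlapped its counterpart, against 77.2% of all WT peaks and 77.2% of all Kap1 KO peaks that did so. The highest lay 10.12 to 12.54 kb upstream, with a score of 3022.68 in WT (28.5%) and 1362.64 in Kap1 KO MEFs (36.3%). The next toward the gene scored 246.38 and 111.16, and the nearest, 2.22 to 3.99 kb upstream in WT, scored 361.36 and 159.07. In the window only the outermost, at 18.52 kb, ran the other way, with 58.85 in WT and 105.48 in Kap1 KO cells. In total the peaks in the window covered 6389 bp (12.6%) in WT and 5586 bp (11.1%) in Kap1 KO MEFs. Farther upstream, within 50 kb, paired peaks scored 299.35 in WT and 290.46 in Kap1 KO, 67.36 and 75.84, and 3100 in both. A WT peak of 269.8 there had no counterpart. Without replicates, whether these scores differ beyond the spread between libraries is unknown, and the scores were not normalised between libraries.

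Meg3, 77664 bp downstream of Dlk1 (chr12:110779211-110809936, plus strand), had a single KAP1 peak in the interval between the 2 genes. This peak, chr12:110766164-110767011, was 848 bp wide, scored 1950 (2.55%) and lay 12.2 to 13.05 kb upstream of the Meg3 start, outside annotated genes. It was in the SETDB1 list as well, at 6.66%.

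H3K9me3 of WT MEFs was denser upstream of Meg3 than in any other of the 5 windows, with 9 of the 10 peaks found in them. At the mean density of the list a window of this length would hold 0.384 peaks. That mean takes peaks as evenly spread, whereas most of these lay in close groups. The share of gene windows with as many peaks was not computed. The peaks covered 5419 bp, which is 7.66% of the window, and all lay upstream of the gene. A pair of them, with scores of 101.71 and 239.72, began 166 bp from the KAP1 peak and spanned 1659 bp on its Meg3 side, without overlapping it. A further 6 spanned 4031 bp from 4.82 to 0.79 kb before the Meg3 start, with no gap over 327 bp and scores from 52.4 to 221.92. The last stood alone at 15.54 to 15.91 kb upstream with a score of 54.06.

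None of the 9 peaks overlapped a peak in Kap1 KO MEFs, whose nearest H3K9me3 peak on the chromosome was 1991564 bp away. Among all WT H3K9me3 peaks, 3.2% overlapped a Kap1 KO peak, and 1.03% of all gene windows held such a retained peak, so absence from the shorter Kap1 KO list was the rule and not particular to Meg3. The depth behind the lists is unknown, and its part in their lengths was not tested. Of the 9 Meg3 peaks, those with scores of 239.72, 221.92 and 200.71 ranked 1141, 1323 and 1564 in the WT list. The 4319 highest, equal in number to the Kap1 KO list, held these 3, and the others ranked from 4784 to 13281.

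The Meg3 start itself carried H3K27ac in both genotypes, 431 bp beyond the last WT H3K9me3 peak. The WT peak, chr12:110778853-110781232, was 2380 bp wide and scored 664.08, which 50.5% of its list reached. The Kap1 KO peak, chr12:110778964-110781450, was 2487 bp wide, shared 2269 bp with it and scored 1671.71 (33.1%). A second peak of 903 bp with a score of 78.92 followed in Kap1 KO MEFs alone, 2.32 to 3.22 kb inside the gene. Score and rank at the start were thus higher in the Kap1 KO library, the reverse of the strongest Dlk1 peak.

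**Figure D3:**
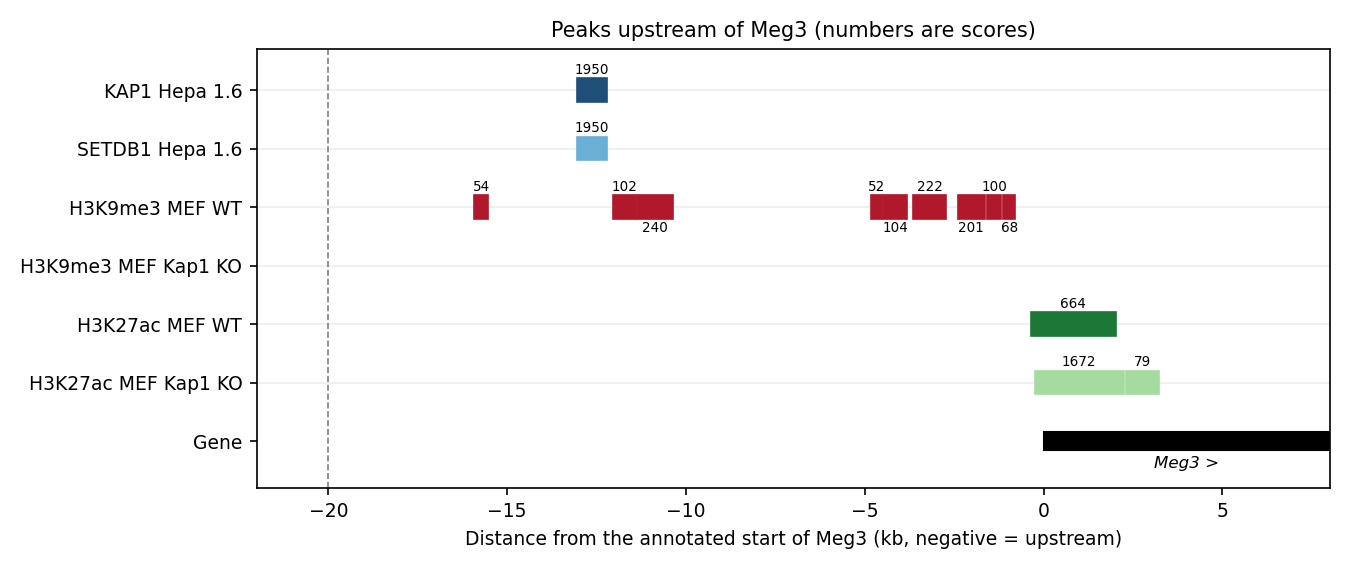
Peaks of the 6 lists from 22 kb upstream to 8 kb inside Meg3, drawn to scale by distance from its annotated start (kb, negative is upstream); numbers are scores and the dashed line is the edge of the window. WT MEFs show 9 H3K9me3 peaks, beside the KAP1 peak (score 1950) and before the start, the Kap1 KO row for H3K9me3 is empty, and H3K27ac covers the start in both genotypes (664.08 and 1671.71).

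Rasgrf1 (chr9:89804613-89921814, plus strand) had no KAP1, SETDB1 or H3K9me3 peak within 20 kb, although its window was the longest of the 5. The highest-ranked peaks at any of the 5 genes in these lists lay beyond that edge, 27.67 to 30.52 kb upstream. The KAP1 peak chr9:89774088-89775026, 939 bp wide, had a score of 3100, a value that 207 KAP1 peaks shared and 4 passed, so that 1.58% of KAP1 peaks were at least as high. It was in the SETDB1 list at 2.91%.

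Over the same place, WT MEFs had a H3K9me3 peak of 2514 bp, chr9:89774427-89776940, with a score of 1123.37. It ranked 36 of 14425 by score (0.25%) and stood at 0.943% by width. It shared 600 bp with the KAP1 peak and reached on from there toward the gene, and a minor WT peak of 300 bp with a score of 50.73 lay on its outer side.

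At Rasgrf1 some H3K9me3 was retained in the Kap1 KO list, where 3.2% of all WT H3K9me3 peaks overlapped a Kap1 KO peak. The 2 Kap1 KO peaks were 344 and 410 bp wide. Their scores were 60.93, which is below the stated minimum of 80, and 103.96 (58.1% and 21.9%). Both lay inside the WT peak, 256 and 712 bp from the KAP1 peak. Both also lay within a stretch of 1464 bp of the WT peak that held a tandem repeat of 40 bases (chr9:89774779-89776242, a length of 36.6 units). Its ends were set by identity at that period, and copies between them were not required to match. The unit is shown from a stretch of 3 identical copies on the plus strand, with no capitals because it holds no hexamer.
Rasgrf1 tandem repeat (chr9:89775930-89776049): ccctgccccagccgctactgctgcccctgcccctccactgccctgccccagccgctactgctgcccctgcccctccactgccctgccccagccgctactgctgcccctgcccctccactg
Bases 40 apart were the same at 80.3% and 87.6% of positions in the 2 Kap1 KO peaks. How reads from such copies were placed was not tested.

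Widening all windows to 50 kb, which takes in this site, raised the number of members with KAP1 to 4 of 5 against 51.5% of all gene windows. For the SETDB1 list the count became 3 against 14.8%, for H3K9me3 in WT MEFs 3 against 39.0%, and for H3K9me3 in Kap1 KO MEFs 2 against 7.02%. Rasgrf1 was the gene gained in each of these lists.

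**Figure D4:**
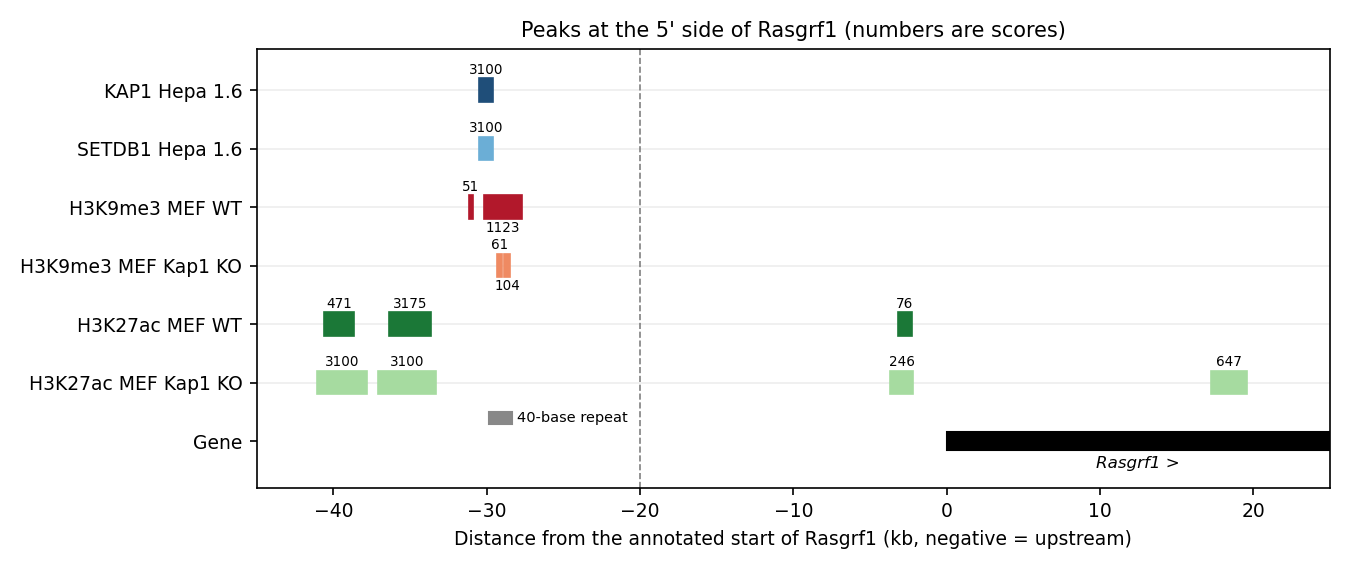
Peaks of the 6 lists from 45 kb upstream to 25 kb inside Rasgrf1, drawn to scale by distance from its annotated start (kb, negative is upstream); numbers are scores, the dashed line is the edge of the 20 kb window and the grey bar is the 40-base repeat. KAP1 (3100) and WT H3K9me3 (1123.37) overlap about 30 kb upstream, and the Kap1 KO H3K9me3 peaks (60.93 and 103.96) lie inside the repeat.

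H3K27ac at Rasgrf1 differed between the genotypes in which peaks were listed. Just before the gene, 2.25 to 3.19 kb upstream in WT, a peak was present in both with scores of 76.26 in WT and 246.27 in Kap1 KO MEFs. Inside the gene 2 intronic peaks were listed in Kap1 KO cells alone. The first, chr9:89821867-89824197, was 2331 bp wide, scored 647.48 (48.1%) and began 17.25 kb past the start, and the second, 63.43 kb past it, scored 108.57. On the far side a WT peak with a score of 110.47 had no counterpart, and one with a score of 2834.06 toward Ctsh, a cathepsin gene, overlapped a Kap1 KO peak of 903.44 that began beyond the window.

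Across the 5 windows, 1 of the 8 WT H3K27ac peaks and 3 of the 9 Kap1 KO peaks lacked a counterpart in the other genotype, at Rasgrf1 and Meg3. Of all H3K27ac peaks, 77.2% in WT and 77.2% in Kap1 KO MEFs overlapped a peak of the other genotype. Counted by windows and not by peaks, 21.1% of all gene windows held a peak listed in WT alone and 19.2% one listed in Kap1 KO alone. Those shares are over windows of all lengths, and the Rasgrf1 window was the longest of the 5, at 157 kb. The differences in listing were therefore not read as particular to these genes. Beyond the window, on the far side of the KAP1 site from Rasgrf1, H3K27ac stood in both genotypes at 33.29 to 41.08 kb upstream, with scores of 470.75 and 3174.78 in WT and 3100 for both peaks in Kap1 KO MEFs.

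The hexamer shown above was counted in the 300 central bases of each KAP1 peak, on both strands, to set the members against the whole list. It occurred at least once in 30.6% of all KAP1 peaks and in 54.0% of those in the SETDB1 list. At least 2 matches were found in 5.13%, at least 4 in 0.284% and at least 5 in 0.142%. The nearer and farther H19 peaks held 2 each, Rasgrf1 held 4 and Meg3 held 5. In the nearer H19 peak, 1 match capitalised above lies outside the 300 central bases, and 1 counted match lies outside the stretch shown. The Igf2 peak with a score of 154 held 1, and the one with a score of 99 held none.

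Over their full lengths, the nearer and farther H19 peaks held 3 matches each, 1 on the plus and 2 on the minus strand. The 5 matches of Meg3 and the 6 of Rasgrf1 were all on the plus strand. Of the 211 KAP1 peaks with a score of at least 3100, 21.3% held the hexamer at least once in their 300 central bases, against the 30.6% of all KAP1 peaks, but 5.69% held it at least 3 times, against 1.06%. The WT H3K9me3 peak upstream of Rasgrf1 held 7 matches and the repeat within it none. Among the 9 H3K9me3 peaks upstream of Meg3, 1 held a single match and none had it in the 300 central bases, where 6.79% of all WT H3K9me3 peaks did.

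The CTCF part occurred 2 and 3 times in the nearer and farther H19 peaks and once in the outer one with a score of 117. It occurred once in the Rasgrf1 peak and once in the Igf2 peak with a score of 154. Neither the Meg3 peak nor the other Igf2 peak held this part. The CTCF part shared bases with 1 hexamer in the farther H19 peak and with 1 in the Igf2 peak with a score of 154. In the 300 central bases of all KAP1 peaks it was found in 10.2%. There, 1 match lay in each of the nearer and farther H19 peaks and in that Igf2 peak. Matches describe letters only, and neither ZFP57 nor CTCF was measured in these lists.

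CpG dinucleotides are the sites of DNA methylation. At the centres of the members' KAP1 peaks they were most frequent, for base composition, at Meg3 and Rasgrf1. Their observed number over that expected from base composition in the 300 central bases was 1.15 at Meg3 (29 CpG) and 0.97 at Rasgrf1 (24 CpG). The Igf2 peak with a score of 154 had 0.753 (26 CpG) and the one with a score of 99 had 0.322. At H19 it was 0.658 in the nearer peak and 0.506 in the farther one, and the medians were 0.508 in the KAP1 list and 0.747 in the SETDB1 list. Over the full peaks the order differed, with 0.782 in the Igf2 peak with a score of 154, 0.686 at Meg3 and 0.563 at Rasgrf1. The outer H19 peak with a score of 117 had 0.614 over its full length. Methylation was not measured in these lists.

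**Figure D5:**
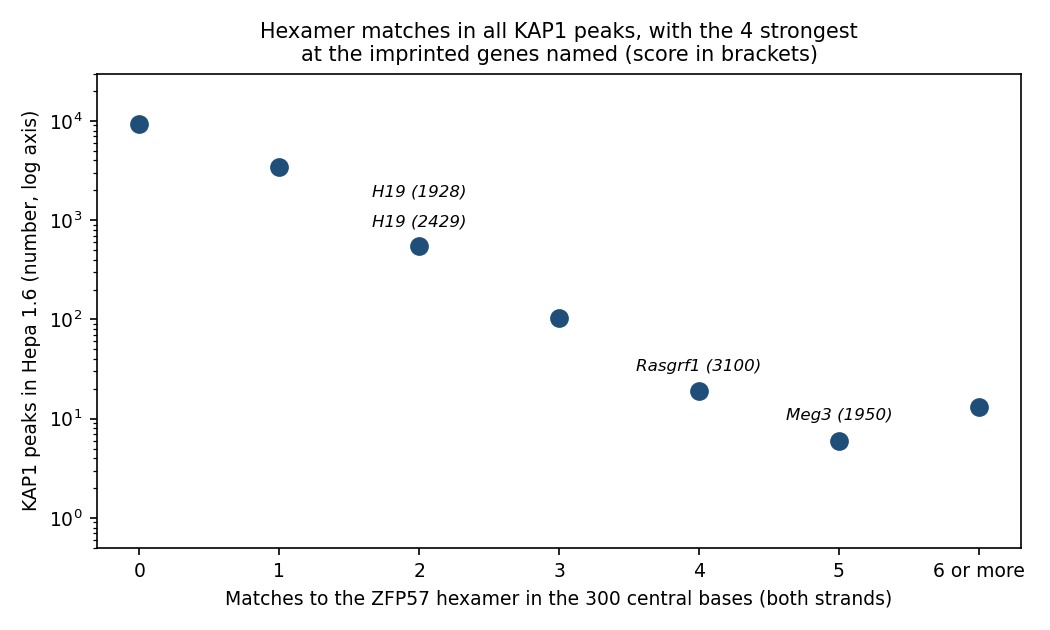
Number of KAP1 peaks of Hepa 1.6 cells (log axis) by the count of ZFP57 hexamers in their 300 central bases, with the 4 member peaks of the highest score named at their count and their scores in brackets. The H19 peaks have 2 matches, Rasgrf1 has 4 and Meg3 has 5, a number that 0.142% of all KAP1 peaks reach or pass.

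For comparison, 18 genes of imprinted domains methylated on the maternal chromosome were taken from a list of 20, Kcnq1ot1 and Peg13 having no entry in the annotation used. KAP1 peaks lay within 20 kb of all 18 (36.3% of all gene windows), and SETDB1 entries of 16 (8.19%). H3K9me3 of WT MEFs was found at 13 (23.6%) and that of Kap1 KO MEFs at none (4.05%). H3K27ac was found at 15 in WT (61.7%) and 16 in Kap1 KO MEFs (62.6%). Several of these genes share a window or a peak, as Gnas and Nespas do. Among the paternally methylated genes, H19 had KAP1 and SETDB1 entries without H3K9me3 in WT MEFs. So did 4 of the 18, Peg3, Snrpn, Zrsr1 and Impact, which are named after their values were seen. Most gene windows lacked WT H3K9me3, since 23.6% held a peak. The share of all windows with KAP1 and SETDB1 entries but no WT H3K9me3 was not computed, so these genes are not set apart from others. Meg3 had KAP1, SETDB1 and WT H3K9me3 entries in its window, though its KAP1 and H3K9me3 peaks did not overlap. The site upstream of Rasgrf1 had them as well, but it lies beyond the 20 kb used for the comparison genes.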

How the data were processed

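The deposited values used here are MACS peak scores in 6 BED lists from 6 of the 18 samples, 1 library each. The authors mapped reads to mm9 with Bowtie 2 (2.2.1 in the submitters' processing notes) (sensitive-local) and used MACS (1.4) to find peaks over total input, with a stated minimum score of 80. The Hepa 1.6 lists start at 80, but the MEF lists start at 50. Scores were not normalised between libraries, read counts are not in the lists, and depth is unknown.

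Peaks were assigned to gene windows (GENCODE vM1, 20 kb flanks, overlap of at least 1 bp) with Python 3.11.15, numpy 2.4.6 and pandas 2.3.3, and drawn with matplotlib 3.10.9. The overlap step was tested on simulated data, where 200 of 200 planted peaks were recovered among 37273 genes, and differed from bedtools 2.31.1 in 0 gene and list pairs. Ranks count peaks with a score at least as high. Sequence was read from the mm9 reference. A peak was kept if it overlapped a peak of the other genotype. Alternatives were another flank (none or 50 kb), a score of at least 80 in MEFs, the 50% of peaks with the highest score, equal numbers of peaks, the middle of the peak, and an overlap of 50% of the shorter peak. The tandem repeat was bounded by its first and last 40-base windows in which bases 40 apart were at least 90% identical. Windows between them were not held to that level.

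The 5 genes, the comparison lists and the motifs were chosen with earlier results of these data known. The genes named are the 5 members, a list of neighbours in their domains and a list of maternally methylated genes, with every peak in the 5 windows and the nearest peak of any list that had none; peaks within 50 kb were added where the text turns on them. RNA, mESC and liver samples of the series were not analysed here.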

Additional observations from a re-analysis of the deposited data

How the results depend on the processing

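Of 53 counts recomputed under the alternatives, 41 stayed within 1.5 times the main count and 12 moved. With gene bodies alone, members with KAP1 fell from 3 to 1, those with SETDB1 entries from 2 to 0, those with WT H3K9me3 from 2 to 0, those with WT H3K27ac from 3 to 1, and WT-only H3K27ac peaks from 1 to 0, since most peaks lie upstream of the genes. With 50 kb flanks, members with Kap1 KO H3K9me3 rose from 1 to 2, retained WT H3K9me3 peaks from 0 to 1 (Rasgrf1) and WT-only H3K27ac peaks from 1 to 2. Members with Kap1 KO H3K9me3 fell from 1 to 0 both with a score of at least 80 in MEFs and with the upper 50% of each list, because the Igf2 peak scored 51.24; the upper 50% also left 0 WT-only H3K27ac peaks. With equal numbers of peaks from both genotypes, members with WT H3K9me3 fell from 2 to 1, Meg3. No paired analysis was possible because each condition used here had 1 library and no test was made. The precision of every score is limited by 1 library per condition, an unknown depth, the many scores tied at 3100 and the KAP1 score that SETDB1 entries carry. KAP1 and H3K9me3 come from different cell types.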

Other observations

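Neighbours in the same domains gave a mixed picture. Of 22 genes around the members, 9 had a KAP1 peak within 20 kb (36.3% of all gene windows) and 1 a SETDB1 entry (8.19%). A WT H3K9me3 peak was found at 8 (23.6%) and a Kap1 KO one at 3 (4.05%). H3K27ac peaks were found at 12 in WT (61.7%) and 13 in Kap1 KO MEFs (62.6%). Many of the peaks counted are those of the members seen from a neighbour. The SETDB1 entries belonged to Mir675, a microRNA hosted by H19. The 3 genes with Kap1 KO H3K9me3 were Mir483, Igf2as and Ins2, which all share the Igf2 peak with a score of 51.24.

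Dio3, which encodes the enzyme that inactivates thyroid hormone and lies at the far end of the Dlk1 and Meg3 domain, had 4 WT H3K9me3 peaks with a highest score of 240.25, close to the 239.72 of Meg3, and none in Kap1 KO MEFs. It had no KAP1 peak, and 1 H3K27ac peak (80.61) in WT MEFs alone. Rtl1, a retrotransposon-derived gene, and the noncoding RNA Rian shared a WT H3K9me3 peak of 83.17 that was not listed in Kap1 KO MEFs. Mirg, a noncoding RNA that hosts microRNAs, had an H3K27ac peak in both genotypes, with scores of 1800.6 and 1704.45.

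Morf4l1, which encodes a chromatin protein and lies in the Rasgrf1 region, had a KAP1 peak with a score of 1395 that was not in the SETDB1 list. Begain, a postsynaptic protein gene beside Dlk1, had a KAP1 peak of 131 and 2 WT H3K9me3 peaks with a highest score of 63.58.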
